A study of Mus musculus with 9 samples.

Results

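Nonclassical (Ly6Clo) monocytes were compared with classical (Ly6Chi) monocytes sorted from the spleens of wild-type mice, across all genes. The comparison uses 6 of the 9 libraries of the series, namely the 3 titled as wild-type Ly6Clo and the 3 titled as wild-type Ly6Chi. Both groups came from untreated C57BL/6 mice of WT genotype, with 40000 to 50000 sorted cells per library. The remaining 3 libraries, Ly6Clo monocytes of mice homozygous for loss of the +37 element of Cebpa (KO), entered the model to estimate the spread and are compared with nothing here. Age and sex are not in the labels, and they do not say whether each replicate came from its own animals, so the p-values reflect only how far these libraries differ, and that may be technical. The sort itself used the Ly6C antigen, so the difference in Ly6c2, its gene, is a property of the gate and not a finding. The difference in its near copy Ly6c1 is read the same way.

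In the mouse, classical monocytes leave the bone marrow through the chemokine receptor Ccr2 and enter inflamed tissue. Nonclassical monocytes patrol the inner wall of blood vessels with the integrin Itgal, depend on the nuclear receptor Nr4a1, and largely arise by conversion from classical monocytes. The spleen holds both subsets, outside and inside its vessels. In such bulk libraries, fewer cells of a type and less RNA per cell cannot be told apart.

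The totals were 49596977, 48141590 and 50464920 counts in Ly6Chi replicates 1 to 3 and 54390611, 173703361 and 53032616 counts in Ly6Clo replicates 1 to 3. Levels below are CPM, a count divided by its TMM-scaled library size and scaled to a common depth, always in the order of replicates 1, 2 and 3. Some libraries stood apart from their group. Immediate early and heat shock genes, which respond to cell isolation as well as to signals, summed to 2344, 19786 and 20465 CPM in Ly6Chi and to 3832, 29975 and 15841 CPM in Ly6Clo, so replicate 1 was low in both groups. Ly6Chi replicate 3 had 0 counts of the Y-linked genes Ddx3y, Kdm5d and Eif2s3y and 1471 counts of Xist, while the other 5 libraries held at most 2 counts of Xist and at least 59.0 CPM of Eif2s3y. Ly6Chi replicate 1 was the lowest of the 3 Ly6Chi libraries for 69.9% of the genes that were higher in Ly6Clo, against 38.1% of all tested genes, and the highest for 55.7% of the genes that were lower, against 39.5% of all. Counts of changed genes are therefore also given without Ly6Chi replicates 1 and 3.

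Of 18341 genes tested, 643 (3.51%) passed edgeR's quasi-likelihood test at a Benjamini-Hochberg adjusted p under 0.05, which is what "changed", "rose" and "fell" mean here. In Ly6Clo monocytes 345 genes rose (1.88% of those tested) and 298 fell (1.62%). These shares are the background for the lists below. A list with only a few calls is not read as a result about its members. The levels of the 2 groups did not overlap in any of the 643, whereas 5185 genes (28.3%) of all tested had no overlap. Protein-coding genes made up 592 of the 643. The median log2 fold change, Ly6Clo minus Ly6Chi, was 1.83 among the risen genes and -2.05 among the fallen, against -0.0042 over all tested genes. A difference of at least 3 on the log2 scale was found for 84 risen and 90 fallen genes. In 59 risen genes the Ly6Chi mean lay under 1 CPM, and in 45 fallen genes the Ly6Clo mean did. The count was 342 without Ly6Chi replicate 1 and 293 without Ly6Chi replicate 3, and leaving out any other wild-type library gave 239 to 269. DESeq2 called 1968. The deposited files carry library numbers of 2 series. Ly6Chi replicate 1, Ly6Clo replicates 1 and 2 and KO replicates 1 and 2 are of series 0170. Ly6Chi replicates 2 and 3, Ly6Clo replicate 3 and KO replicate 3 are of series 0189. Ly6Chi replicate 1 is thus the only Ly6Chi library of its series, and the library and the series cannot be told apart within Ly6Chi. With a term for the series 575 genes passed. Of the genes named below, Cebpa, Ptafr, Cd68, Tnf, H2-Ob, F5, Prtn3, Ms4a3, Tmem121b, Clec10a and Adgre1 lost their calls with that term (edgeR adjusted p of 0.05 to 0.078). In limma-voom Ngp, Ltf, Camp, Vcan, Mmp8, Prtn3 and Tnf did not pass (limma-voom adjusted p of 0.077 to 0.15). In the edgeR fit of the 6 wild-type libraries alone Tgfbr1, H2-Ob and Tmem121b did not pass.

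**Figure D1:**
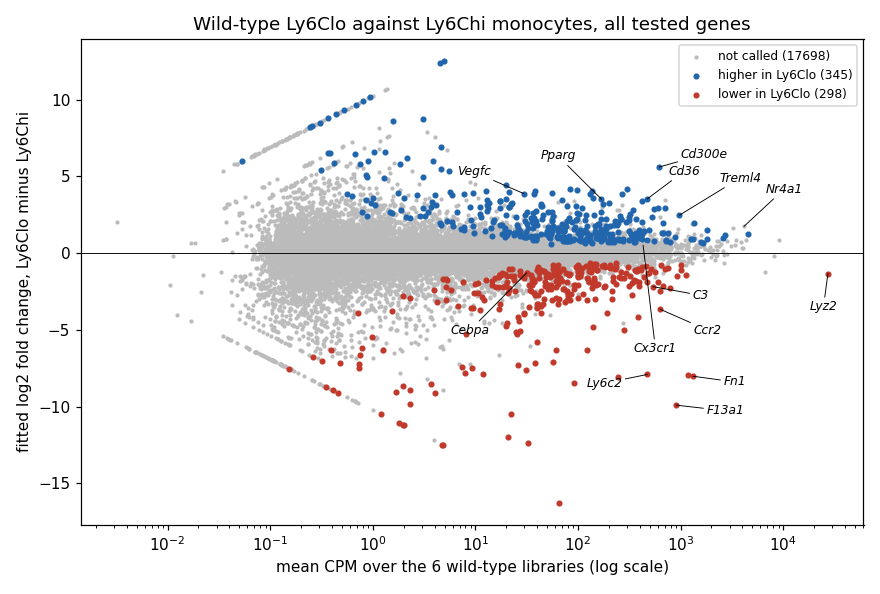
Each point is a tested gene, with its mean level over the 6 wild-type libraries in CPM (log axis) against its fitted log2 fold change, Ly6Clo minus Ly6Chi. The 345 risen genes are blue, the 298 fallen genes red and all others grey; Nr4a1 and Cx3cr1 are among the grey points, and the points on the slanted outer rows are genes without counts in a group, whose fitted values depend on a prior count.

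Promoter sequence was looked at for short motifs of factors known in these cells, because groups of genes moved together. The windows are RefSeq promoters of build GRCm38.p6, from 250 bases before to 50 after a gene's start, 300 bases each, and both strands were searched. The motifs were the letters GAAA repeated after any 2 bases for the interferon-stimulated response element, TTGCNNAA for C/EBP factors, GAGGAAGT for PU.1 and AAAGGTCA for NR4A receptors. Matches of a motif may overlap each other. The interferon element was found in 7 of the 12 interferon response genes that have a window (58.3%), and in 3.99% of all promoters. That list was taken whole, called and uncalled genes alike, so its share does not describe the difference between the groups. It was found in 5.2% of 250 risen and 7.73% of 233 fallen genes that have a window, and in 4.05% of the 11058 tested genes that have one. The C/EBP motif was in 15.2% of risen and 16.3% of fallen genes, against 10.4% of tested genes and 12.2% of all promoters. The PU.1 motif was in 8.0% and 6.87%, against 4.12% of tested genes and 3.69% of all promoters. The NR4A motif was in 3 of the 250 risen and 0 of the 233 fallen genes, against 1.35% of tested genes and 1.70% of all promoters. These matches describe letters in a window and show no binding.

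A window is printed here for a gene of each of the main groups below, with the motif named for it in capitals and the rest in lower case, 5′ to 3′ along the gene. Isg15 (chr4:156200769-156201068, minus strand, interferon element) and Ngp (chr9:110419558-110419857, plus strand, C/EBP motif) are an interferon gene and a neutrophil granule gene that fell. They are examples and do not represent their groups. No interferon element was found for the fallen Usp18, Oasl2, Ifi204 or Ifit2, some of which may have no window. Ly6c2 (chr15:75111888-75112187, minus strand, PU.1 motif) is the gene of the sort antigen, and Fcgr4 (chr1:171018676-171018975, plus strand, PU.1 motif on the other strand) is an Fc receptor that rose. The Fcgr4 window also holds a match of the interferon element, with its first base at -73 from the start, which is left in lower case.
Isg15: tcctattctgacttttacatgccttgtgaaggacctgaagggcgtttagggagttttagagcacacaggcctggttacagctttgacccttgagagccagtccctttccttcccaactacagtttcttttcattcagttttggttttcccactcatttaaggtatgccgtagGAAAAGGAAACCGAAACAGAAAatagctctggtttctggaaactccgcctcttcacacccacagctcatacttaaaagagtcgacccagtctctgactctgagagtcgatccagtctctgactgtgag
Ngp: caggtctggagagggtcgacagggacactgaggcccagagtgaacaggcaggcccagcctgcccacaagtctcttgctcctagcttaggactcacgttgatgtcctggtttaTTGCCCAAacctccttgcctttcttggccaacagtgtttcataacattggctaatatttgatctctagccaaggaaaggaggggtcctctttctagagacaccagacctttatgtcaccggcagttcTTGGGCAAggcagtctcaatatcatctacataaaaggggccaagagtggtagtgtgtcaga
Ly6c2: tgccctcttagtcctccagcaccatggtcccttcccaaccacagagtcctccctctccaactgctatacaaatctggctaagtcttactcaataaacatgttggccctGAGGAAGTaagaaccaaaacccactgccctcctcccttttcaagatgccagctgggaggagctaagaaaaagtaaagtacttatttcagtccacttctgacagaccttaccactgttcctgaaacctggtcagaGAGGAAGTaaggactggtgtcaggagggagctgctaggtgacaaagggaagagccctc
Fcgr4: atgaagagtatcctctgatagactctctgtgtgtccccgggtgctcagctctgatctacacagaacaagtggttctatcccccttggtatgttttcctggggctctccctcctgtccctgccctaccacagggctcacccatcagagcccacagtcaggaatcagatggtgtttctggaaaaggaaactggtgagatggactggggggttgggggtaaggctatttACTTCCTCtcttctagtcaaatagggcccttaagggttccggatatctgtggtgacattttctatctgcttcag

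Genes known to mark classical monocytes separated the groups widely. Of the 16 on that list 14 fell in Ly6Clo and 0 rose (median log2 fold change -5.73). Ly6c2 and its near copy Ly6c1 are among these 14, and their falls follow from the sort, so they add nothing to the separation. Ly6c2 (chr15:75108158-75111970) was at 1063, 913 and 862 CPM in Ly6Chi and 2.22, 4.26 and 5.33 CPM in Ly6Clo (log2 fold change -7.91 with SE 0.42, edgeR adjusted p = 0.00028). Its neighbour Ly6c1, a near copy whose reads are hard to assign, was at 65.5, 46.1 and 43.3 against 0.0917, 0.278 and 0.649 CPM. Both genes were thus close to absent from every Ly6Clo library. Ccr2 (chr9:124101950-124113557), the receptor for the chemokine Ccl2, stood at 1512, 989.7 and 992 CPM in Ly6Chi and 100.3, 83.8 and 93.8 CPM in Ly6Clo (log2 fold change -3.65 with SE 0.29, edgeR adjusted p = 0.00075). Every Ly6Chi library was above any Ly6Clo library, but unlike Ly6c2 this gene kept a clear level in Ly6Clo. Chil3 (chr3:106147554-106167564), a secreted chitinase-like protein, was at 2867, 1002 and 3189 CPM in Ly6Chi and 8.05, 14.5 and 5.71 CPM in Ly6Clo. Fn1 (chr1:71585520-71653200), fibronectin, was at 1682, 2979 and 3213 CPM against 7.50, 17.1 and 5.54 CPM (log2 fold change -8.02 with SE 0.88, edgeR adjusted p = 0.0026). Clec4e, a C-type lectin, and the interferon-inducible Ifitm6 were the 2 members that did not pass. Clec4e read 109, 127 and 181 against 136, 533 and 227 CPM, and Ifitm6 read 298, 346 and 321 against 299, 223 and 321 CPM, so both overlapped. The list's count was 8 without Ly6Chi replicate 1, 8 without Ly6Chi replicate 3, and 7 to 9 without another wild-type library.

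Genes known to mark nonclassical monocytes rose in 11 of 18 cases and fell in 0 (median log2 fold change 2.02), and all 18 had a positive fold change. Cd300e (chr11:115051917-115062177), an activating receptor of myeloid cells, had the largest called difference among them, at 13.5, 29.6 and 31.5 CPM in Ly6Chi and 1405, 1211 and 1024 CPM in Ly6Clo (log2 fold change 5.61 with SE 0.35, edgeR adjusted p = 0.00061). Treml4 (chr17:48264295-48275360), a receptor of the TREM family, was at 148, 347 and 398 CPM against 1655, 1841 and 1439 CPM (log2 fold change 2.47 with SE 0.33, edgeR adjusted p = 0.0057). In both genes Ly6Chi replicate 1 was the lowest library of all. Lair1, an inhibitory collagen receptor, was at 83.0, 113 and 147 against 562, 523 and 451 CPM, without overlap. Among the 7 members that did not pass, several are genes by which the subset is usually known. Nr4a1 (chromosome 15) read 322, 2627 and 2785 CPM in Ly6Chi and 2458, 11134 and 5537 CPM in Ly6Clo (log2 fold change 1.74 with SE 0.83, edgeR adjusted p = 0.31). Its values overlapped, and within each group they followed the summed immediate early genes, being lowest in replicate 1; the part of that in the result was not tested. Cx3cr1, the fractalkine receptor, read 180.3, 459 and 425 CPM against 533, 384 and 605 CPM (log2 fold change 0.51 with SE 0.34, edgeR adjusted p = 0.48), again with overlap. Itgal, the alpha chain of LFA-1, read 437, 1122 and 1311 CPM against 1949, 2319 and 2256 CPM (log2 fold change 1.18 with SE 0.37, edgeR adjusted p = 0.14), with no overlap. Ace, angiotensin-converting enzyme, read 99.6, 748 and 797 CPM in Ly6Chi and above those in every Ly6Clo library (log2 fold change 1.89 with SE 0.60, edgeR adjusted p = 0.14). For Cx3cr1, Itgal and Ace, Ly6Chi replicate 1 lay far under the other Ly6Chi libraries. Without it 13 of the 18 passed, and 9 without Ly6Chi replicate 3.

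**Figure D2:**
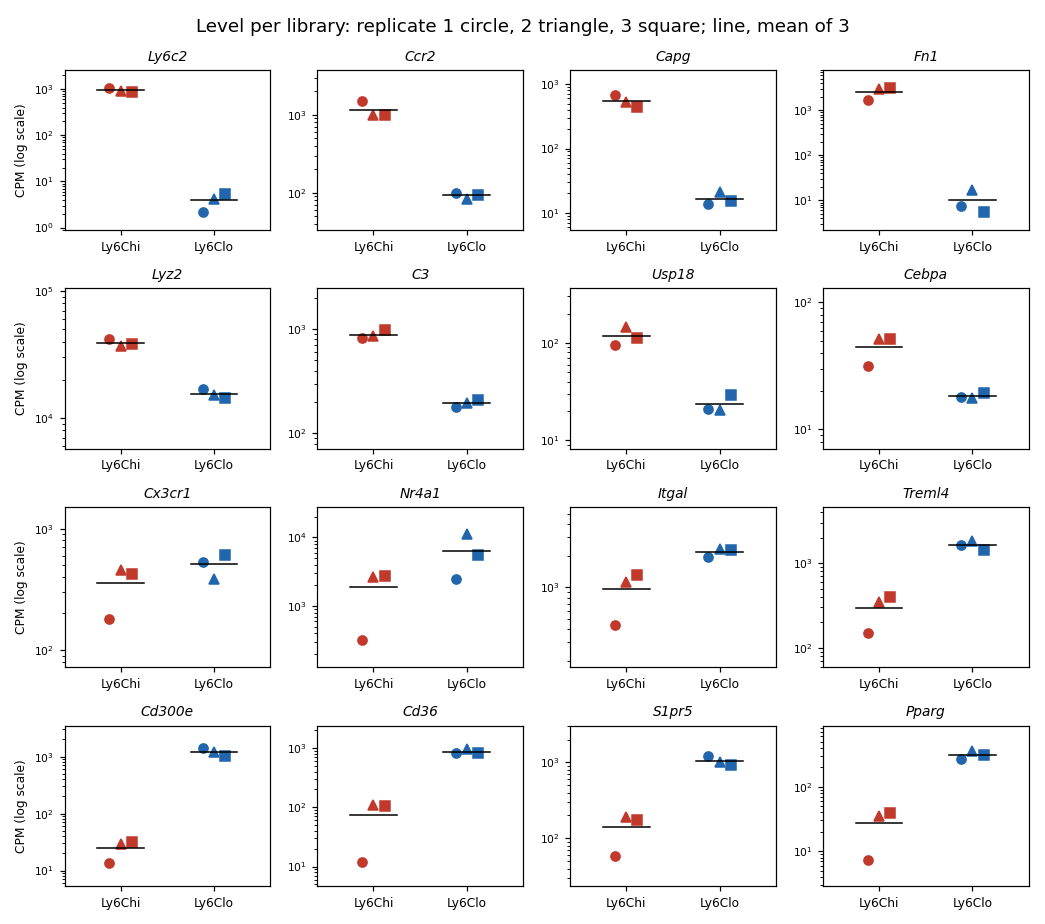
Level of 16 genes in each library in CPM (log axis, 1 scale per gene), Ly6Chi in red and Ly6Clo in blue, with replicates 1, 2 and 3 as circle, triangle and square and a line at the mean of 3. The groups are apart for each gene except Cx3cr1 and Nr4a1, where they overlap, and the red circle lies under the other red points for each gene of the lower rows, from Cx3cr1 to Pparg.

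Among 32 transcription factors of the monocyte lineage 2 rose and 1 fell (median log2 fold change 0.33, 0.02 to 0.51 under the alternatives). Pparg (chr6:115360951-115490399), a fatty acid sensing nuclear receptor, was at 7.31, 35.8 and 38.9 CPM in Ly6Chi and 271, 353 and 309.9 CPM in Ly6Clo (log2 fold change 3.51 with SE 0.55, edgeR adjusted p = 0.012). Tcf7l2 (chr19:55741820-55933654), which acts with beta-catenin downstream of Wnt, was at 5.96, 18.6 and 21.4 CPM against 74.2, 113 and 104 CPM (log2 fold change 2.67 with SE 0.46, edgeR adjusted p = 0.017). Both stood well apart from Ly6Chi, whose replicate 1 was lowest. Cebpa (chr7:35119293-35121928), the C/EBP factor that specifies granulocyte and monocyte progenitors, went the other way, at 31.5, 51.3 and 51.6 CPM in Ly6Chi and 18.2, 17.7 and 19.2 CPM in Ly6Clo (log2 fold change -1.29 with SE 0.26, edgeR adjusted p = 0.032). Its relative Cebpb read 768, 899.7 and 726 CPM against 1257, 2471 and 1288 CPM, without overlap (log2 fold change 1.07 with SE 0.27, edgeR adjusted p = 0.071). Klf2 read 434, 987 and 960 CPM against 1253, 1643 and 1388 CPM, and Spi1, which encodes PU.1, read 816, 1077 and 996 CPM against 1332, 1544 and 1309 CPM. In neither did the groups overlap, yet neither passed (edgeR adjusted p = 0.21 and 0.091). Irf8, needed for the monocyte fate, read 466, 816 and 598 CPM against 308, 540 and 516 CPM, with overlap. Cebpa lost its call without Ly6Chi replicate 2 or 3, any Ly6Clo replicate or KO replicate 2 (edgeR adjusted p of 0.051 to 0.13), besides its loss with the series term (0.07), and Tcf7l2 without Ly6Chi replicate 2 or Ly6Clo replicate 2 or 3 (0.056 to 0.059).

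Of 18 receptors for chemoattractants and sphingosine 1-phosphate, 3 rose and 2 fell (median log2 fold change -0.04, -0.70 to 0.39 under the alternatives). S1pr5 (chr9:21242912-21248443), a sphingosine 1-phosphate receptor through which cells leave the marrow, was at 59.3, 189 and 175 CPM in Ly6Chi and 1223, 1014 and 934 CPM in Ly6Clo (log2 fold change 2.91 with SE 0.39, edgeR adjusted p = 0.0059). S1pr4 was at 11.2, 12.3 and 14.6 CPM against 32.7, 24.1 and 27.9 CPM (log2 fold change 1.15 with SE 0.22, edgeR adjusted p = 0.025). Both were higher in each Ly6Clo library than in any Ly6Chi library, S1pr5 by a wider margin. Fpr1, the receptor for formylated bacterial peptides, was at 11.1, 6.63 and 6.68 CPM against 33.5, 56.9 and 33.4 CPM (log2 fold change 2.34 with SE 0.32, edgeR adjusted p = 0.0069). Besides Ccr2, the fallen receptor was Ptafr, for platelet-activating factor, at 30.0, 45.1 and 31.1 CPM against 2.66, 6.91 and 7.66 CPM (log2 fold change -2.62 with SE 0.54, edgeR adjusted p = 0.033). Ccr1 read 65.0, 20.4 and 18.6 CPM against 0.0367, 2.69 and 1.64 CPM and did not pass (edgeR adjusted p = 0.15), although its groups did not overlap. C5ar1, the C5a receptor, read 45.9, 81.5 and 89.8 CPM against 126, 469 and 171 CPM (edgeR adjusted p = 0.095). Ptafr lost its call without any wild-type library or KO replicate 3 (edgeR adjusted p of 0.052 to 0.11), and S1pr4 without any wild-type library (0.054 to 0.10).

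Adhesion molecules changed in both directions, with 8 of 24 risen and 3 fallen (median log2 fold change 0.82). The risen ones were the integrin chains Itgax, Itgb1, Itgb2 and Itgb5, the tetraspanins Cd9 and Cd81, the sialophorin Spn and the endothelial contact molecule Pecam1. Itgb2 (chr10:77530252-77565708), the beta chain shared by LFA-1 and Mac-1, was at 1474, 1727 and 1845 CPM in Ly6Chi and 3759, 3935 and 3597 CPM in Ly6Clo (log2 fold change 1.16 with SE 0.14, edgeR adjusted p = 0.0035). Itgax, which encodes CD11c, was at 15.4, 40.0 and 45.5 CPM against 411, 255 and 281 CPM (log2 fold change 3.23 with SE 0.45, edgeR adjusted p = 0.0068). The spread within Ly6Clo was small for Itgb2 and larger for Itgax. Cd9 (chr6:125460266-125494791) was at 18.6, 45.7 and 40.9 CPM against 479.8, 542 and 481 CPM (log2 fold change 3.84 with SE 0.39, edgeR adjusted p = 0.0020). Cd81 was at 10.2, 7.24 and 8.19 CPM against 74.3, 86.7 and 72.3 CPM (log2 fold change 3.18 with SE 0.33, edgeR adjusted p = 0.0022). Cd81 thus varied little within either group. The fallen members included the integrin chains Itga5 (log2 fold change -1.0) and Itgb7 (-1.03). Selplg, the ligand of P-selectin, was at like levels in both groups, with 876, 1103 and 1001 CPM against 1048, 1079.7 and 893 CPM (log2 fold change 0.02 with SE 0.19). The counts were 8 and 2 without Ly6Chi replicate 1 and 6 and 2 without Ly6Chi replicate 3, and at the least 4 and 1, without Ly6Chi replicate 2 or Ly6Clo replicate 1.

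Fc receptors and complement genes split. Of 17 tested, 2 rose and 2 fell (median log2 fold change 0.01, -0.13 to 0.24 under the alternatives). Fcgr4 (chr1:171018920-171029761), an activating receptor for IgG2 antibodies whose promoter is printed above, was at 21.8, 40.0 and 52.5 CPM in Ly6Chi and 418, 295 and 384 CPM in Ly6Clo (log2 fold change 3.26 with SE 0.36, edgeR adjusted p = 0.0027). Fcgrt, the neonatal Fc receptor that recycles IgG, was at 92.1, 113 and 101 CPM against 339, 520.3 and 311 CPM (log2 fold change 1.94 with SE 0.25, edgeR adjusted p = 0.0052). The opposite held for the high affinity receptor Fcgr1 (chr3:96282909-96293969), at 80.7, 90.3 and 83.9 CPM against 21.7, 17.2 and 21.6 CPM (log2 fold change -2.08 with SE 0.25, edgeR adjusted p = 0.0035). C3 (chr17:57203970-57228136), the central complement component, was at 819.5, 850.4 and 981 CPM against 179, 195 and 208 CPM (log2 fold change -2.19 with SE 0.20, edgeR adjusted p = 0.0012). C3 and Fcgr1 varied little within each group, Fcgr4 in Ly6Chi and Fcgrt in Ly6Clo more, and in none did the groups overlap. Each of these 4 genes passed edgeR whichever single library was left out. Fcer1g, the chain through which activating Fc receptors signal, read 1285, 1121 and 1171 CPM against 1606, 1317 and 1546 CPM (edgeR adjusted p = 0.43).

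Pattern recognition receptors gave a single call among 23, the fall of Clec4a2 (median log2 fold change of the list -0.37, -0.43 to -0.11 under the alternatives). Of all tested genes 3.51% were called, so the count says nothing particular about the list. This C-type lectin was at 114, 52.4 and 55.1 CPM in Ly6Chi and 6.31, 8.44 and 7.48 CPM in Ly6Clo (log2 fold change -3.31 with SE 0.46, edgeR adjusted p = 0.0071). Its close paralog Clec4a3 read 581, 513 and 546 CPM against 1018, 727 and 759.9 CPM (edgeR adjusted p = 0.26), so the neighbours differed in sign. Tlr13, a sensor of bacterial ribosomal RNA, read 424, 505 and 596 CPM against 667, 804 and 733 CPM (edgeR adjusted p = 0.16).

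Scavenger receptors rose in 3 of 15 cases and fell in 0 (median log2 fold change 0.08, -0.23 to 0.19 under the alternatives), and lipid handling genes gave 1 rise and 1 fall among 21 (median 0.41, and 0.23 without Ly6Chi replicate 1). Cd36 (chr5:17781690-17888801), which takes up oxidized lipoproteins and long-chain fatty acids, was at 11.8, 109 and 105 CPM in Ly6Chi and 812, 956 and 836 CPM in Ly6Clo (log2 fold change 3.52 with SE 0.68, edgeR adjusted p = 0.027). The Ly6Chi libraries disagreed on Cd36, with replicate 1 far under the others, while Ly6Clo was even. Havcr2, the receptor TIM-3, was at 41.2, 78.3 and 84.8 CPM against 228, 291 and 234 CPM (log2 fold change 1.88 with SE 0.30, edgeR adjusted p = 0.012). Cd68, a lysosomal glycoprotein of phagocytes, was at 572, 609 and 604 CPM against 959, 1091 and 934 CPM (log2 fold change 0.74 with SE 0.16, edgeR adjusted p = 0.043). The cytosolic fatty acid carriers moved apart, although their genes lie near each other on chromosome 3. Fabp4 (chr3:10204088-10208576) was at 7.62, 19.0 and 19.1 CPM against 356, 183 and 228 CPM (log2 fold change 4.07 with SE 0.51, edgeR adjusted p = 0.0045), and Fabp5 (chr3:10012548-10016607) was at 41.5, 24.9 and 32.3 CPM against 16.1, 8.56 and 10.7 CPM (log2 fold change -1.48 with SE 0.30, edgeR adjusted p = 0.031). Apoe, the lipoprotein of cholesterol efflux, read 670.3, 1827 and 2209.6 CPM against 5081, 5476 and 4355 CPM, without overlap (log2 fold change 1.66 with SE 0.40, edgeR adjusted p = 0.056). The scavenger count was 2 without Ly6Chi replicate 1 and 1 without any other single wild-type library. Cd36 lost its call without Ly6Chi replicate 2 or 3 or any Ly6Clo replicate (edgeR adjusted p of 0.072 to 0.076). Fabp5 lost it without any library but Ly6Clo replicate 1 and KO replicate 1 (0.052 to 0.12), and Cd68 without any but KO replicate 1 (0.06 to 0.15).

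Growth factor and cytokine receptors gave 1 rise and 1 fall among 23, against 1.88% risen and 1.62% fallen of all tested genes (median log2 fold change 0.39, and 0.67 without Ly6Chi replicate 3). Tgfbr1 (chr4:47353222-47414931), the type I receptor for TGF-beta, was at 105, 204 and 301 CPM in Ly6Chi and 537, 683 and 541 CPM in Ly6Clo (log2 fold change 1.53 with SE 0.33, edgeR adjusted p = 0.040). The co-receptor Tgfbr3 (chr5:107106570-107289629), betaglycan, was among the largest rises, at 2.18, 12.1 and 12.5 CPM against 146, 195 and 135 CPM (log2 fold change 4.15 with SE 0.61, edgeR adjusted p = 0.0088). Of 21 genes of the Notch and TGF-beta pathways Tgfbr1 was the single call, against 3.51% called of all tested genes (median 0.05, -0.10 to 0.22 under the alternatives). Notch2 read 105, 366 and 452 CPM against 342, 290.4 and 506 CPM, with overlap. Il6st, the signalling chain gp130 of the IL-6 receptor family, was at 142, 153 and 155 CPM against 64.0, 63.6 and 57.3 CPM (log2 fold change -1.28 with SE 0.20, edgeR adjusted p = 0.013). Csf1r, the receptor for the growth factor on which monocytes live, read 1993, 3542 and 3802 CPM against 4954, 6335 and 5351 CPM (log2 fold change 0.83 with SE 0.24, edgeR adjusted p = 0.098), without overlap. Tgfbr1 lost its call without Ly6Chi replicate 2, any Ly6Clo replicate or KO replicate 2 or 3 (edgeR adjusted p of 0.061 to 0.14), and Il6st without Ly6Chi replicate 2 or Ly6Clo replicate 1 or 3 (0.053 to 0.065). Tgfbr1 also did not pass when edgeR was fitted to the 6 wild-type libraries alone.

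Among 25 secreted factors 1 rose and 1 fell, against 1.88% and 1.62% of all tested genes (median log2 fold change -0.24, -0.71 to 0.30 under the alternatives). Tnf (chr17:35199381-35202007) was at 4.35, 4.67 and 4.17 CPM in Ly6Chi and 34.4, 74.0 and 11.8 CPM in Ly6Clo (log2 fold change 3.19 with SE 0.62, edgeR adjusted p = 0.027). Ly6Chi was even here, and the Ly6Clo libraries differed several-fold among themselves. Ccl9, a chemokine, was at 811, 539 and 571 CPM against 190.2, 107 and 144 CPM (log2 fold change -2.12 with SE 0.34, edgeR adjusted p = 0.013). Il1b read 39, 583 and 780.4 CPM against 471, 2739 and 1005 CPM, with overlap and with replicate 1 lowest in both groups. Outside the list, Vegfc (chr8:54077606-54187096), the growth factor of lymphatic vessels, was at 3.58, 4.92 and 2.84 CPM against 50.2, 57.4 and 58.9 CPM (log2 fold change 3.88 with SE 0.30, edgeR adjusted p = 0.00075). Tnf lost its call without any Ly6Chi replicate or Ly6Clo replicate 1 or 2 (edgeR adjusted p of 0.072 to 0.11), and Ccl9 without Ly6Clo replicate 2 or 3 (0.051 to 0.06).

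Interferon response genes were lower in Ly6Clo monocytes. Of 18 tested, 6 fell and 0 rose, and all 18 had a negative fold change (median log2 fold change -1.59). Their summed level was 2598, 4042 and 3751 CPM in Ly6Chi and 1593, 1409 and 1712 CPM in Ly6Clo, so the groups did not overlap. Usp18 (chr6:121245906-121270917), which removes the modifier ISG15 from proteins, was at 94.4, 145 and 113 CPM against 21.2, 20.7 and 29.2 CPM (log2 fold change -2.31 with SE 0.30, edgeR adjusted p = 0.0054). Oasl2 (chr5:114896936-114912234), of the oligoadenylate synthetase family, was at 199.7, 328 and 355 CPM against 67.6, 46.4 and 79.5 CPM (log2 fold change -2.19 with SE 0.33, edgeR adjusted p = 0.010). Both passed whichever single library was left out. Ifi204, a DNA sensor, was at 359, 374 and 381 CPM against 157, 98.7 and 120.2 CPM (log2 fold change -1.57 with SE 0.25, edgeR adjusted p = 0.012). Ifit2, which binds foreign RNA, was at 41.0, 109 and 102 CPM against 6.58, 8.53 and 16.1 CPM (log2 fold change -3.01 with SE 0.48, edgeR adjusted p = 0.013). Isg15 (chr4:156199455-156200796), the ubiquitin-like modifier with the promoter printed above, was at 55.9, 79.8 and 61.4 CPM against 6.12, 10.7 and 13.2 CPM (log2 fold change -2.71 with SE 0.51, edgeR adjusted p = 0.024). Irf7, a transcription factor of the interferon response, read 591, 1028 and 874 CPM against 399, 523 and 429 CPM (log2 fold change -0.88 with SE 0.25, edgeR adjusted p = 0.10). The list's count was 5 without Ly6Chi replicate 1, 4 without Ly6Chi replicate 3 and 3 without Ly6Chi replicate 2 or any Ly6Clo replicate, and DESeq2 called 13. Isg15 lost its call without any wild-type library (edgeR adjusted p of 0.061 to 0.095), Ifit2 without Ly6Chi replicate 2 or Ly6Clo replicate 1 or 2 (0.052 to 0.059) and Ifi204 without Ly6Clo replicate 3 (0.06).

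**Figure D3:**
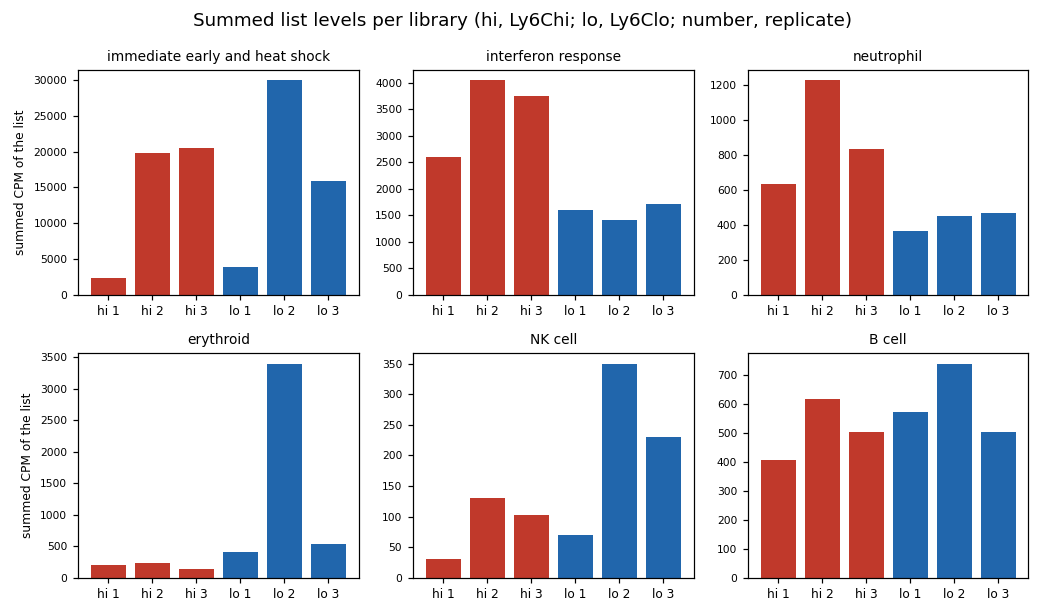
Summed CPM of 6 gene lists in each library, Ly6Chi (hi) in red and Ly6Clo (lo) in blue, numbered by replicate, with bars from 0. The interferon and neutrophil sums are lower in every Ly6Clo library, the immediate early sum is low in replicate 1 of both groups, and the erythroid sum is far highest in Ly6Clo replicate 2, at 3400 CPM.

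MHC class II presentation changed in 3 of 13 genes, with 1 rise and 2 falls (median log2 fold change 0.14, -0.32 to 0.61 under the alternatives). H2-DMa, part of the peptide exchange factor H2-M, was at 219, 227 and 205 CPM in Ly6Chi and 73.4, 67.1 and 68.8 CPM in Ly6Clo (log2 fold change -1.64 with SE 0.28, edgeR adjusted p = 0.017). H2-Ob, a chain of the factor that inhibits H2-M, was at 3.59, 9.47 and 4.76 CPM against 13.1, 32.9 and 26 CPM (log2 fold change 2.02 with SE 0.46, edgeR adjusted p = 0.049). These 2 chains had opposite signs, and the partner chain of each factor is not shown here. The costimulatory receptor Cd40 was at 47.6, 67.3 and 58.1 CPM against 27.4, 21.3 and 27.4 CPM (log2 fold change -1.19 with SE 0.22, edgeR adjusted p = 0.024). The class II chain H2-Ab1 read 188, 883 and 490.5 CPM against 158, 1178 and 769 CPM, and the invariant chain Cd74 read 495, 1976 and 1431 CPM against 1008, 2543 and 1792 CPM. Both spanned a wide range within each group and overlapped. B cells and dendritic cells also express these genes. The B cell list summed to 406, 617 and 503 CPM against 572, 741 and 503 CPM, and the dendritic cell factor Zbtb46 read 1.16, 13.6 and 7.66 CPM against 6.05, 24.7 and 17.1 CPM. Their part in the class II levels was not tested. Without a single library the list had 0 to 2 calls, H2-DMa losing its call without any wild-type library (edgeR adjusted p of 0.052 to 0.076) and Cd40 without Ly6Chi replicate 2 or 3 or any Ly6Clo replicate (0.086 to 0.11). H2-Ob lost it without Ly6Chi replicate 1 or 3, Ly6Clo replicate 2 or 3 or any KO replicate (0.053 to 0.16). H2-Ob also did not pass when edgeR was fitted to the 6 wild-type libraries alone.

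In the main edgeR fit, antiapoptotic genes accounted for all changes in the BCL2 family, where 4 of 17 rose and 0 fell (median log2 fold change 0.13, 0.01 to 0.23 under the alternatives). DESeq2 called 5 higher and 2 lower, and edgeR with the replicate number as a block called 4 higher and 1 lower. Bcl2 (chr1:106538178-106714274) was at 14.5, 25.9 and 47.0 CPM in Ly6Chi and 125, 117 and 135 CPM in Ly6Clo (log2 fold change 2.11 with SE 0.38, edgeR adjusted p = 0.021). Bcl2a1d (chr9:88723285-88731914) was at 5.88, 21.6 and 23.5 CPM against 138, 135 and 147 CPM (log2 fold change 3.05 with SE 0.44, edgeR adjusted p = 0.0088). Its near copies Bcl2a1a (log2 fold change 2.65) and Bcl2a1b (3.0) rose too, but reads of these copies may be shared, so they are not independent genes in the count. All 4 were even within Ly6Clo and lowest in Ly6Chi replicate 1. Mcl1, another antiapoptotic member, read 1395, 1659.6 and 1850.2 CPM against 1449, 1532 and 1548 CPM (log2 fold change -0.11 with SE 0.15), and overlapped. The proapoptotic Pmaip1 read 44.5, 262 and 306 CPM against 172, 646 and 378 CPM, with overlap (edgeR adjusted p = 0.50). The count was 4 without Ly6Chi replicate 1 or 3, 1 without Ly6Chi replicate 2 and 2 without any single Ly6Clo replicate. Bcl2 and Bcl2a1a lost their calls without Ly6Chi replicate 2 or any Ly6Clo replicate (edgeR adjusted p of 0.055 to 0.092), and Bcl2a1b without Ly6Chi replicate 2 (0.051).

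Of 24 matrix, protease and coagulation genes 20 could be tested, of which 9 fell and 0 rose, while 11 did not pass, 3 of them with a positive fold change (median log2 fold change -1.85, and -3.01 by limma-voom). F13a1 (chr13:36867178-37050244), the clot-stabilizing transglutaminase subunit, was at 2401, 1507 and 1487 CPM in Ly6Chi and 3.37, 2.07 and 0.153 CPM in Ly6Clo (log2 fold change -9.91 with SE 1.76, edgeR adjusted p = 0.019). F5, coagulation factor V, was at 20.6, 39.5 and 99.6 CPM against 1.34, 2.75 and 0.668 CPM (log2 fold change -5.05 with SE 0.92, edgeR adjusted p = 0.021). Vcan, the proteoglycan versican, was at 88.6, 13 and 31.0 CPM against 0, 0.0199 and 0.0764 CPM. F5 and Vcan varied several-fold within Ly6Chi and F13a1 less so, and in none of these did the groups overlap. The collagenase Mmp8 was at 344, 87.4 and 121 CPM, and all of its Ly6Clo counts came from replicate 2 (1.37 CPM). Mmp19, another metalloproteinase, had 3 counts in all of Ly6Clo and 1279 in Ly6Chi. With counts pooled per group and divided by the summed TMM-scaled library sizes, the ratio was 719 (95% counting interval 246 to 3492). In contrast, another transglutaminase rose, since Tgm2 (chr2:158116402-158146436) was at 13.5, 36.0 and 47.8 CPM against 422, 888 and 412 CPM (log2 fold change 4.15 with SE 0.61, edgeR adjusted p = 0.0095). Thbs1, thrombospondin, read 67.9, 519 and 997 CPM against 6.22, 52.5 and 8.63 CPM (edgeR adjusted p = 0.17), without overlap. The list's count was 5 without Ly6Chi replicate 1, 2 without Ly6Chi replicate 2 or 3, 3 without Ly6Clo replicate 2, and 1 without Ly6Clo replicate 1 or 3. Fn1 remained called in each of those fits. F13a1 and F5 lost their calls without any wild-type library but Ly6Chi replicate 1 (edgeR adjusted p of 0.051 to 0.095), Vcan without any wild-type library (0.069 to 0.14), Mmp8 without any Ly6Chi replicate or Ly6Clo replicate 1 or 3 (0.055 to 0.074), Mmp19 without any Ly6Clo replicate (0.057 to 0.06) and Tgm2 without Ly6Chi replicate 2 (0.05).

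Immature monocytes can also transcribe granule genes of the neutrophil lineage. Of 12 neutrophil genes 5 fell and 0 rose, while 7 did not pass, 3 of them with a positive fold change (median log2 fold change -4.23, -6.93 to -3.42 under the alternatives). Ngp (chr9:110419747-110423012), a granule protein whose promoter is printed above, was at 35, 256 and 104 CPM in Ly6Chi and had 0 counts in each Ly6Clo library, which makes it at least 2989-fold lower against 3 counts per library (edgeR adjusted p = 0.042). Camp, the precursor of cathelicidin, was at 9.28, 88.2 and 28.4 CPM against 2 counts in all of Ly6Clo (ratio of pooled counts per summed library size 5177, counting interval 1432 to 42754). Ltf, lactoferrin, was at 20.9, 121 and 55.0 CPM against 3 counts (ratio of pooled counts per summed library size 5424, counting interval 1855 to 26306). These secondary granule genes were highest in Ly6Chi replicate 2 and lowest in replicate 1. S100a8, a calcium-binding alarmin, was at 134, 137 and 69.2 CPM against 0.0917, 0.577 and 1.79 CPM (log2 fold change -7.13 with SE 1.07, edgeR adjusted p = 0.010), and its partner S100a9 was at 83.8, 195 and 82.3 CPM against 1.83, 0.431 and 2.31 CPM. Of the 7 members that did not pass, Ly6g was at 0.0204 to 0.411 CPM and Retnlg at 0 to 0.667 CPM over both groups. Csf3r read 297, 389.5 and 473 CPM against 356, 447 and 459 CPM, and the other uncalled members are not shown here. The whole neutrophil list summed to 631, 1225 and 831 CPM in Ly6Chi and 362, 451 and 465 CPM in Ly6Clo. The part of neutrophils in these levels was not tested. Cd177, a surface protein of neutrophils that is on the classical list here, was at 362, 549.8 and 561 CPM against 2.97, 0.0133 and 2.69 CPM (log2 fold change -8.06 with SE 1.56, edgeR adjusted p = 0.026). Of 8 genes on the list of primary granule genes 2 fell. Prtn3 was at 54.8, 8.14 and 7.72 against 0.0183, 0.00663 and 0.306 CPM. Ms4a3, which encodes a membrane protein and no granule protein, was at 0.858, 1.63 and 2.12 against 0.0183, 0.0199 and 0.0191 CPM. Elane read 30.8, 13.4 and 8.70 CPM against 0.367, 0 and 0 CPM and did not pass (edgeR adjusted p = 0.087). The neutrophil count was 3 without Ly6Chi replicate 1, and 1 without any other wild-type library. S100a8 lost its call without Ly6Clo replicate 2 (edgeR adjusted p = 0.052), and Ngp without any wild-type library (0.08 to 0.12). Camp and Ltf lost theirs without any wild-type library but Ly6Chi replicate 1 (0.056 to 0.14), and Cd177 without any but Ly6Clo replicate 2 (0.057 to 0.10). S100a9, Prtn3 and Ms4a3 each lost theirs in 7 of the 9 fits without a library (0.05 to 0.16), among them each fit without a Ly6Chi replicate.

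Lysosomal genes gave 1 rise and 2 falls among 19 tested (median log2 fold change -0.04, -0.15 to 0.17 under the alternatives). Lyz2 (chr10:117277331-117282321), lysozyme M, was at 42098, 37094 and 38042 CPM in Ly6Chi and 16990.3, 15158 and 14357 CPM in Ly6Clo (log2 fold change -1.33 with SE 0.17, edgeR adjusted p = 0.0052). It ranked first by TPM (transcript abundance scaled per length) in both groups, at 90604 ± 7441 TPM (SD, n = 3) and 36294 ± 4213 TPM. Its neighbour Lyz1 was at 1654, 1253 and 1195 CPM against 511, 468 and 482 CPM. Ctsb (chr14:63122462-63145923), a cysteine protease, rose from 2277, 2858 and 3017 CPM to 6295, 7433 and 5267 CPM (log2 fold change 1.22 with SE 0.17, edgeR adjusted p = 0.0076). Ctss, a related protease, read 2457, 2335 and 2361 CPM against 2326, 2004 and 1842 CPM (edgeR adjusted p = 0.75). By mean TPM the thymosin Tmsb4x ranked next in both groups, and H2-D1, B2m, Gpx1, Tyrobp and Ifitm3 were also among the first 10 of both. Apoe ranked 27 in Ly6Chi and 7 in Ly6Clo, Nr4a1 45 and 10, and the saposin precursor Psap 3 and 14, of which none passed the edgeR test. Lyz1 lost its call without any Ly6Clo replicate (edgeR adjusted p of 0.065 to 0.07).

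In glycolysis 1 of 19 genes rose, against 1.88% of all tested genes (median log2 fold change 0.19, 0.06 to 0.26 under the alternatives). The risen gene was Eno3 (chr11:70657202-70662513), the muscle isoform of enolase, at 49.4, 187 and 157 CPM in Ly6Chi and 1172, 861 and 883 CPM in Ly6Clo (log2 fold change 2.89 with SE 0.43, edgeR adjusted p = 0.010). The common isoform Eno1 read 1467, 1493 and 1433 CPM against 1560.2, 1803 and 1203 CPM and overlapped (log2 fold change 0.06 with SE 0.18). Of 83 tested cytosolic ribosomal protein genes 7 fell and 0 rose, and 80 had a negative fold change (median -0.55). DESeq2 called 31 of them lower and limma-voom 9. Rps9 was at 581, 507 and 468 CPM against 285, 227 and 251 CPM (log2 fold change -1.03 with SE 0.16, edgeR adjusted p = 0.011). Ribosomal sums were 12767, 12299 and 11683 CPM against 8821, 7376 and 9379 CPM, without overlap. In oxidative phosphorylation 0 of 76 genes passed edgeR, 71 had a negative fold change (median -0.48, and -0.19 without Ly6Chi replicate 1), 19 had an unadjusted p under 0.05, and DESeq2 called 4 and limma-voom 0. Of 19 cell cycle genes 0 passed in limma-voom or the 9-library edgeR fit, where 7 had an unadjusted p under 0.05, and DESeq2 called 4 lower. The edgeR fit of the 6 wild-type libraries called 3 lower, as did the fit without KO replicate 1, and 1 was called without scaling, with no filter or with the filter of 1 CPM. Mki67 read 30.6, 30.5 and 31.7 CPM against 4.36, 11.5 and 11.3 CPM, and Top2a 69.9, 53.8 and 61.2 CPM against 4.55, 23.3 and 23.6 CPM. Both lay lower in every Ly6Clo library, while the replication clamp Pcna read 64.5, 64.4 and 70.2 CPM against 83, 100.5 and 81.5 CPM (edgeR adjusted p = 0.30). Slc11a1, the iron and manganese exporter of phagosomes, was the single call among 12 iron genes, at 317, 427 and 434 CPM against 1032, 907 and 969.7 CPM (log2 fold change 1.30 with SE 0.20, edgeR adjusted p = 0.012). Without any single wild-type library at most 1 ribosomal gene passed. Rps9 lost its call without Ly6Clo replicate 3 (edgeR adjusted p = 0.055), and Slc11a1 without Ly6Chi replicate 2 or Ly6Clo replicate 1 (0.05 to 0.051).

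**Figure D4:**
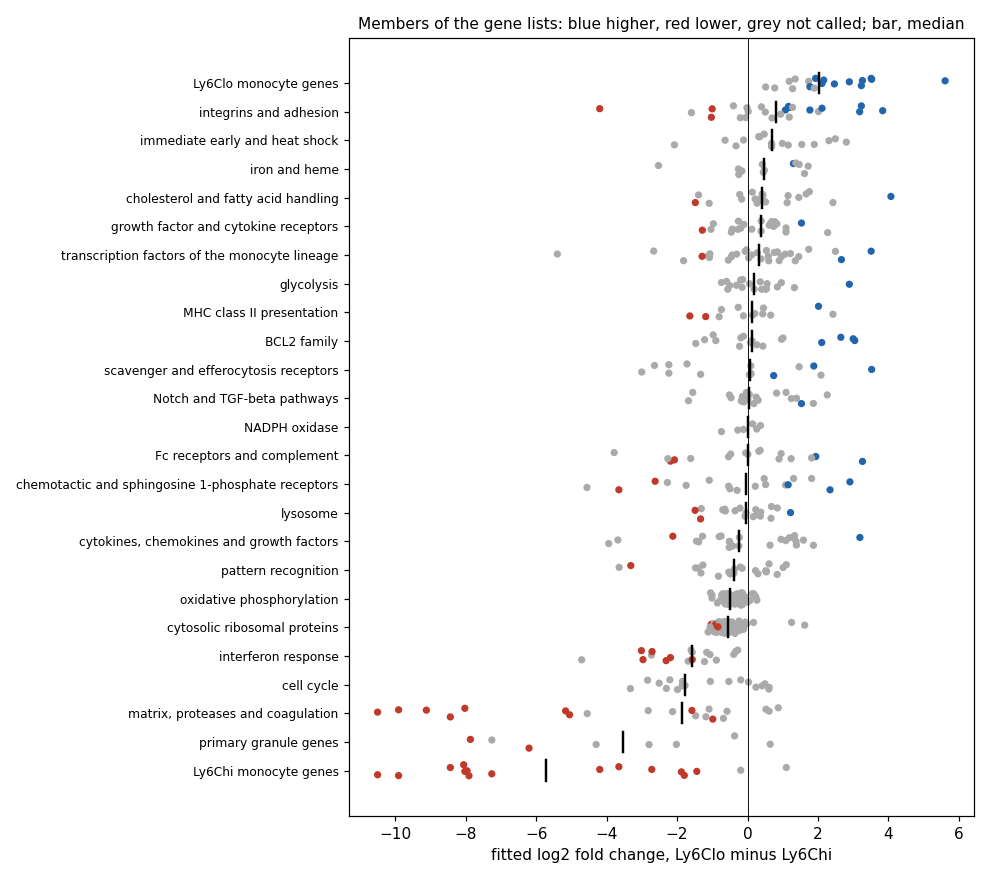
Fitted log2 fold change, Ly6Clo minus Ly6Chi, of each tested member of 25 gene lists, with risen genes in blue, fallen in red, uncalled in grey and a bar at the list's median. Medians run from -5.73 for the classical monocyte list at the bottom to 2.02 for the nonclassical list at the top.

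Further genes are given here from the largest rises among genes at 20 CPM or more in Ly6Clo. Adrb1 (chr19:56722199-56733113), the beta-1 adrenergic receptor, was at 0.215, 3.23 and 1.78 CPM in Ly6Chi and 25.7, 42.8 and 45.1 CPM in Ly6Clo (log2 fold change 4.45 with SE 0.77, edgeR adjusted p = 0.018). Cd274 (chr19:29367455-29388095), the checkpoint ligand PD-L1, was at 8.01, 30.3 and 25.2 CPM against 171, 355 and 248 CPM (log2 fold change 3.61 with SE 0.50, edgeR adjusted p = 0.0067). Igf2r, which sorts lysosomal enzymes, was at 1.43, 0.834 and 2.04 CPM against 29.4, 19.1 and 23.0 CPM. All 3 were low in each Ly6Chi library and without overlap. Lilra5, an activating immunoglobulin-like receptor, was at 9.37, 19.3 and 22.2 CPM against 304, 247 and 178 CPM (log2 fold change 3.84 with SE 0.36, edgeR adjusted p = 0.0013). Dusp16, a phosphatase of JNK and p38 kinases, was at 4.38, 15.9 and 12.4 CPM against 166, 214 and 181 CPM (log2 fold change 4.10 with SE 0.46, edgeR adjusted p = 0.0028). Plxnb3, a semaphorin receptor on the X chromosome, was at 2.16, 10.4 and 8.04 CPM against 56.8, 171 and 88.9 CPM. The other large rises were those of Tmem121b, Phlda3 and Smagp, with log2 fold changes of 4.05, 4.01 and 3.88. Among rises with the smallest adjusted p were Cd300ld, a receptor encoded beside Cd300e, at 114, 192 and 172 CPM against 1335, 1234 and 1153 CPM, and Rcan1, an inhibitor of calcineurin, at 35.9, 39.7 and 34.8 CPM against 189, 252 and 170.3 CPM. Sh2d1b1, Gcnt2, Smc6 and Serpinb6a belonged to them too, with log2 fold changes of 2.64, 1.99, 2.41 and 2.75 and edgeR adjusted p of at most 0.0011. Adrb1 lost its call without Ly6Chi replicate 3 or Ly6Clo replicate 2 or 3 (edgeR adjusted p of 0.052 to 0.073), Igf2r without Ly6Chi replicate 1 or 2 (0.062), Plxnb3 without Ly6Chi replicate 3 (0.059) and Tmem121b without any library but Ly6Chi replicate 1 and KO replicate 1 (0.066 to 0.11).

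Among falls with the smallest adjusted p, actin regulators were Capg and Gas7. Capg (chr6:72544391-72562983), which caps actin filaments, was at 672, 519 and 436 CPM in Ly6Chi and 13.6, 21.4 and 15.1 CPM in Ly6Clo (log2 fold change -5.02 with SE 0.35, edgeR adjusted p = 0.00075). Gas7 was at 37.6, 54.2 and 56.4 CPM against 0.752, 1.61 and 1.39 CPM (log2 fold change -5.29 with SE 0.39, edgeR adjusted p = 0.00075). Each was far lower in all 3 Ly6Clo libraries. Racgap1, which acts in cell division, was at 142, 141 and 161 CPM against 25.6, 26.5 and 18.9 CPM (log2 fold change -2.64 with SE 0.21, edgeR adjusted p = 0.00075). Fgl2, a secreted fibrinogen-like protein, was at 337, 228 and 223 CPM against 24.1, 41.0 and 32.1 CPM, and Hopx, a homeodomain protein that binds no DNA, at 142, 90.3 and 92.4 CPM against 15.4, 13.4 and 13 CPM. Dck, which phosphorylates deoxycytidine, was at 212, 181 and 212 CPM against 55.5, 54.4 and 55.2 CPM. Slfn4 and Glipr2 fell as well, with log2 fold changes of -3.03 and -2.18. Besides those of earlier paragraphs, the largest falls at 20 CPM or more were Chil4, a near copy of Chil3, at 88.3, 25.4 and 74.1 CPM against 0.183, 0.331 and 0.420 CPM, and Atrnl1, an attractin-like protein, at 77.5, 76.2 and 72.2 CPM against 0, 1.21 and 0.267 CPM. Atrnl1 was the one of these that lost its call, without Ly6Chi replicate 2 or Ly6Clo replicate 3 (edgeR adjusted p = 0.051 and 0.072).

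Markers of other spleen cells were detected in all libraries. Erythroid genes summed to 201, 239 and 139 CPM in Ly6Chi and 411, 3400 and 533 CPM in Ly6Clo, with 0 of 9 called by edgeR, DESeq2 or limma-voom and 0 at an unadjusted p under 0.05. NK cell genes summed to 30.4, 130 and 103 CPM against 69.5, 350 and 230 CPM, with 0 of 9 called and 1 at an unadjusted p under 0.05, and T cell genes to 107, 168 and 195 CPM against 63.0, 212 and 123 CPM, with 0 of 10 called and 1 at an unadjusted p under 0.05. For B cells edgeR called 0 of 10, with 3 at an unadjusted p under 0.05, and DESeq2 called 2 higher. Of 12 red pulp macrophage genes 1 rose, Adgre1, which encodes F4/80 and is also on monocytes, at 271, 235 and 288 CPM against 427, 507 and 406 CPM (log2 fold change 0.75 with SE 0.16, edgeR adjusted p = 0.035). In this list 10 genes had a positive and 2 a negative fold change (median log2 fold change 1.0). DESeq2 called 3 of the 12 higher and 1 lower, and the edgeR fit of the 6 wild-type libraries alone called 3 higher. The defining macrophage factor Spic read 13.6, 12.5 and 12.7 CPM against 27.4, 30.9 and 21.4 CPM (edgeR adjusted p = 0.13), and the macrophage list summed to 470, 500 and 625 CPM against 773, 829 and 611 CPM; the part of such cells in the levels of Cd68, Slc11a1 or Adgre1 was not tested. Of 13 conventional dendritic cell genes 2 fell, Clec10a, at 41.8, 28.2 and 26 against 6.22, 10.0 and 9.36 CPM, and Naaa, at 345, 305 and 281 against 147, 153 and 147 CPM. Of 7 plasmacytoid dendritic cell genes Bst2 fell, at 117, 156 and 141 CPM against 72.6, 45.5 and 63.6 CPM, while the defining Siglech was at most 1.52 CPM in any library. Basophil genes were scarce, with Prss34 at 0, 0.897 and 1.57 CPM against 0, 19.3 and 37.6 CPM, and 0 of 7 tested genes of eosinophils, basophils and mast cells were called by edgeR (3 at an unadjusted p under 0.05, and 1 called by DESeq2). Of these 7 genes 6 had a positive fold change (median log2 fold change 3.11). Adgre1 lost its call without any library but KO replicate 1 (edgeR adjusted p of 0.057 to 0.14), Naaa without any wild-type library (0.096 to 0.15), Clec10a without any wild-type library or KO replicate 3 (0.057 to 0.13) and Bst2 without Ly6Chi replicate 2 or 3 or Ly6Clo replicate 2 or 3 (0.067 to 0.087).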

How the data were processed

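RNA was made into libraries from 10 ng with 12 to 15 cycles of PCR and sequenced as reads of 150 bases, per the labels' protocols. The submitters' processing notes name the builds GRCm38 and mm10, STAR 2.5.1a, Subread with featureCounts 1.4.6-p5, Salmon 0.8.2, edgeR and limma, without saying which values each made. Per the file headers each file holds a count, a CPM, an FPKM and a TPM value for 55487 genes. The deposited counts, whole numbers per gene, were used for all tests, the deposited TPM for the ranking by level, and the CPM and FPKM columns deposited by the authors were not used. The use of strand in counting was not given in the sources used here, so overlapping or antisense genes and near copies are less certain.

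The counts of all 9 libraries were fitted in edgeR 4.0.16 (R 4.3.3) by quasi-likelihood with 1 term per group, TMM scaling and filterByExpr with a minimum count of 10, and adjusted by Benjamini-Hochberg over the 18341 genes kept (common dispersion 0.448). No replicate pair was a duplicate, since the chi-square per gene between replicates ran from 49.1 to 425. On simulated counts of this comparison with 17408 genes, edgeR called 30 of 42 genes set to a log2 fold change of 3, 28 of 52 set to -3, 13 of 44 set to 2 and 18 of 50 set to -2, with 7 false calls in all. Intervals and floors (3 counts) cover counting error only, since reads carry no molecular identifiers here.

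Named genes were 8 fixed genes, the 15 largest called changes in each direction at 20 CPM or more in the higher group without overlap, the 10 with the smallest adjusted p in each direction, the 10 highest by TPM, and, per list, up to 5 called and 2 uncalled members. Further list members and markers of other cells were chosen for mention after their values were seen. The comparison, the gene lists and this rule were all chosen with earlier results of these data known. Alternatives covered scaling, filters, tool (DESeq2 1.42.0, limma-voom 3.58.1), the 6 wild-type libraries alone, a replicate block, a term for the series of library numbers, and each library left out. A few genes that this rule names are not reported here.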

Additional observations from a re-analysis of the deposited data

How the results depend on the processing

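The reported fit called 643 genes (345 risen, 298 fallen), and 0 genes called both there and under an alternative had opposite signs. DESeq2 called 1968 genes, 1002 higher and 966 lower, of which 637 were among the 643. The edgeR fit of the 6 wild-type libraries alone called 474 lower genes and 828 in all, so that 42.8% of its calls were higher. The library number term gave 575 calls, RLE scaling 626, limma-voom 803, and the filter of 1 CPM in 3 libraries 837. Without scaling, the median of all genes moved to -0.116 and 702 genes were called, 326 higher and 376 lower. Leaving out a single library gave 239 to 847 calls, 134 to 429 higher and 105 to 418 lower. Fewer samples in the fit is part of these settings, and otherwise the cause was not tested. The labels do not say what a replicate number stands for. Ly6Chi replicate 3 and Ly6Clo replicate 3 differed in their Y-linked and Xist counts, as given above. These libraries therefore cannot come from the same animals, which limits the replicate block. Deviations of same-numbered wild-type libraries correlated at 0.198, 0.0552 and 0.00807, so that not every pair passed the 0.1 set for calling samples paired. With KO libraries of the same number the Ly6Chi libraries correlated at 0.213, 0.104 and 0.00478 and the wild-type Ly6Clo libraries at 0.277, 0.188 and 0.0480. Not every library correlated best with its own number: Ly6Chi replicate 3 did so with KO replicate 2 (0.103). With the replicate number as a block, 949 genes were called on 9 libraries, 534 of them higher, and 660 on the 6 wild-type libraries. Under the block, ribosomal calls went from 7 to 14 and oxidative phosphorylation calls from 0 to 3 on 9 libraries, and Cebpa, Tmem121b, Prtn3, Ms4a3 and Clec10a lost their calls (edgeR adjusted p of 0.05 to 0.064). Of 180 named genes tested, 101 were called, 51 of these under each of 19 alternatives, and 0 reversed. The shallowest library held 48141590 counts, so that a gene with 0 counts in it may still lie at up to 0.0623 CPM (3 counts).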

Other observations

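Among the 643 changed genes, 13 runs of at least 3 neighbouring tested genes on a chromosome changed in the same direction, and several are families of related genes. The runs were looked for after the values had been seen, related copies may share reads, and no test was made of their number. On chromosome 1, the interferon-inducible genes Ifi214, Ifi213 and Ifi209 (chr1:173519717-173647928) fell in Ly6Clo, and so did Mndal, Ifi211 and Ifi203 (chr1:173849126-173942672). Ifi211 was at 136, 139 and 129 CPM in Ly6Chi and 17.6, 11.9 and 15 CPM in Ly6Clo (log2 fold change -3.18 with SE 0.35, edgeR adjusted p = 0.0026), and Ifi209 at 511, 500.0 and 589.9 CPM in Ly6Chi and 137, 108 and 166 CPM in Ly6Clo (log2 fold change -1.96 with SE 0.23, edgeR adjusted p = 0.0033). On chromosome 11 the whey acidic protein family members Wfdc17, Wfdc18 and Wfdc21 (chr11:83703991-83752642) fell, with Wfdc17 at 456, 173 and 176 CPM in Ly6Chi and 11.7, 7.09 and 9.32 CPM in Ly6Clo (log2 fold change -4.84 with SE 0.78, edgeR adjusted p = 0.014). In both families the groups did not overlap. Runs of risen genes included Cd300ld, Cd300c2 and Cd300ld5 (chr11:114982274-115037769), beside Cd300e, and Ear-ps2, Gm49101 and Ear2 of the eosinophil-associated ribonucleases on chromosome 14. Cd300c2 was at 72.7, 142 and 141 CPM in Ly6Chi and 474, 472 and 476 CPM in Ly6Clo (log2 fold change 2.0 with SE 0.25, edgeR adjusted p = 0.0047). Ear2 was at 93.1, 146 and 146 CPM in Ly6Chi and 773, 418 and 629.6 CPM in Ly6Clo (log2 fold change 2.24 with SE 0.28, edgeR adjusted p = 0.0045), while the eosinophil genes Epx and Prg2 were too low to be tested.

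In 12 risen genes every Ly6Chi library had 0 counts, and in 11 fallen genes every Ly6Clo library did. The examples given here were chosen after their values were seen. Scnn1g, a subunit of the epithelial sodium channel, had 2266 counts over the Ly6Clo libraries, which makes it at least 151-fold higher against 3 counts per library. Nxpe5 and Tarm1, the latter an activating receptor of myeloid cells, had 1528 and 1507 counts over the Ly6Chi libraries and were at least 218-fold and 215-fold lower in Ly6Clo.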
